A study of Homo sapiens with 18 samples.

Results

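The collagen genes were examined in RNA sequencing libraries of SKMEL2 and SKMEL30, established human melanoma cell lines that carry activating mutations of NRAS. They were taken by symbol, as every gene named COL, a number, A and a number, which gave 44 of the 58051 genes in the deposited table, and all 44 had a count above 0 in at least 1 library. Both lines, the uninduced controls included, carry the tet-ON pTRIPZ-PPP2R3B lentiviral vector, from which doxycycline switches on PPP2R3B, the gene of the regulatory subunit PR70 of the phosphatase PP2A. Each line was measured without induction and after 6 h and 18 h of induction, with 3 libraries per group and 18 in all. Each line is a puromycin-selected, transduced population, and no library of cells given doxycycline without the PPP2R3B insert was analysed here. Levels are given as CPM (counts scaled to library size, with TMM factors over the 18 libraries), and a collagen gene is called expressed in a line when its mean over the 9 libraries of that line is at least 1 CPM.

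Collagens are extracellular matrix proteins built from alpha chains that wind around each other into a triple helix in the endoplasmic reticulum, and each COL gene encodes a single chain. Some types are made of 1 kind of chain, while others need partner chains from several genes, so that the set of chains a cell transcribes bounds the types it could assemble. Fibrillar collagens form the banded fibres of skin and bone, fibril-associated collagens sit on those fibres, type IV forms the sheet of basement membranes, on which melanocytes rest in the epidermis, and smaller groups form beaded filaments, anchoring fibrils, hexagonal nets or membrane-bound forms.

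Total counts ran from 13402645 to 22383470 per library. PPP2R3B was at 20.6 ± 3.59 CPM (SD, n = 3) in uninduced SKMEL2 and 473 ± 43.9 CPM (SD, n = 3) at 18 h, and at 20.9 ± 1.35 CPM and 615 ± 1.76 CPM (SD, n = 3 each) in SKMEL30. All 8 melanocyte lineage markers, among them MITF, PMEL and SOX10, were at 1 CPM or more in both lines, with TYRP1 at a median of 4.47 CPM in SKMEL2 and 1217 CPM in SKMEL30. The 9 fibroblast markers summed to 13.3 to 18.8 CPM in SKMEL2 and 86.2 to 93.4 CPM in SKMEL30, where LUM, FAP and PRRX1 were the 3 at 1 CPM or more and DCN, TCF21 and PDGFRB stayed under 1 CPM. The 5 keratinocyte markers summed to 45.2 to 61.8 CPM in SKMEL2, mostly KRT10 and TP63, and to 17.5 to 20.7 CPM in uninduced SKMEL30, and KRT1 was at 0 in all 18 libraries. Of the endothelial list KDR reached 10.6 CPM in SKMEL2 and CDH5 at most 0.0779 CPM in any library, and of the blood list CD68 alone was at 1 CPM or more. The part of these levels in the collagen results was not tested.

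Some collagen genes stood apart in 3 libraries, all of the 6 h groups. In SKMEL2 at 6 h, replicate 1 held 29 counts of COL4A1 and 59 of COL4A2, where the other 8 SKMEL2 libraries held 0 to 10 and 6 to 14. Its levels of COL4A1, COL4A2 and TYRP1 were 0.880%, 0.931% and 0.946% of those in uninduced SKMEL30. A panel of 18 other genes was chosen as over 50 CPM in uninduced SKMEL30 and under 1 CPM in uninduced SKMEL2. In this SKMEL2 library it summed to 1.20% of its SKMEL30 level, against 0.462% to 0.772% in the other 8. These 8 include the uninduced libraries used for the choice. The reverse panel, of 38 genes high in uninduced SKMEL2, summed to 0.577% and 0.586% of its SKMEL2 level in SKMEL30 replicate 1 at 6 h and 18 h. The other SKMEL30 libraries were at 0.141% to 0.252%, with 0.252% in replicate 3 at 6 h. In SKMEL30 at 6 h, replicate 3 held 65 counts of COL17A1, where the other 8 SKMEL30 libraries held 1 to 12. The keratinocyte keratins KRT5 and KRT14 were at 37.5 and 26.4 CPM in that library and at no more than 6.48 and 4.17 CPM in the other 8, and the summed keratinocyte list reached 83.9 CPM against at most 30.5 CPM. The same library held the most COL12A1 of the line, 147 counts against 48 to 91, and the most COL1A2, 11 counts against 0 to 2. The next highest KRT5, KRT14 and COL17A1 of SKMEL30 were all in replicate 3 at 18 h, with COL17A1 at 0.659 CPM. The SKMEL2 libraries varied too, with KRT5 at 0 to 8.26 CPM and COL17A1 at 0.0554 to 0.931 CPM, both highest in uninduced replicate 1. In SKMEL2 at 6 h, replicate 3 held the highest level of its line for 11 of the 25 collagen genes expressed there. Among them were COL1A2 at 3.50 CPM against at most 2.15 CPM in the other 8, and COL6A2 at 4.75 against 2.94 CPM. COL6A3 was at 26.9 against 21.2 CPM and COL18A1 at 25.9 against 20.8 CPM. Replicate 3 of SKMEL30 at 6 h held the highest level for 6 of the 19 expressed in that line. The share of all genes that were highest in these libraries was not counted, so neither count is a trait of collagens. Without the library named for each, the SKMEL2 means of COL4A1 and COL4A2 went from 0.381 and 0.824 CPM to 0.227 and 0.518 CPM, that of COL6A2 from 2.45 to 2.16 CPM, and the SKMEL30 mean of COL17A1 from 0.609 to 0.306 CPM. The part of the other line or of other cells in these counts was not tested.

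**Figure D1:**
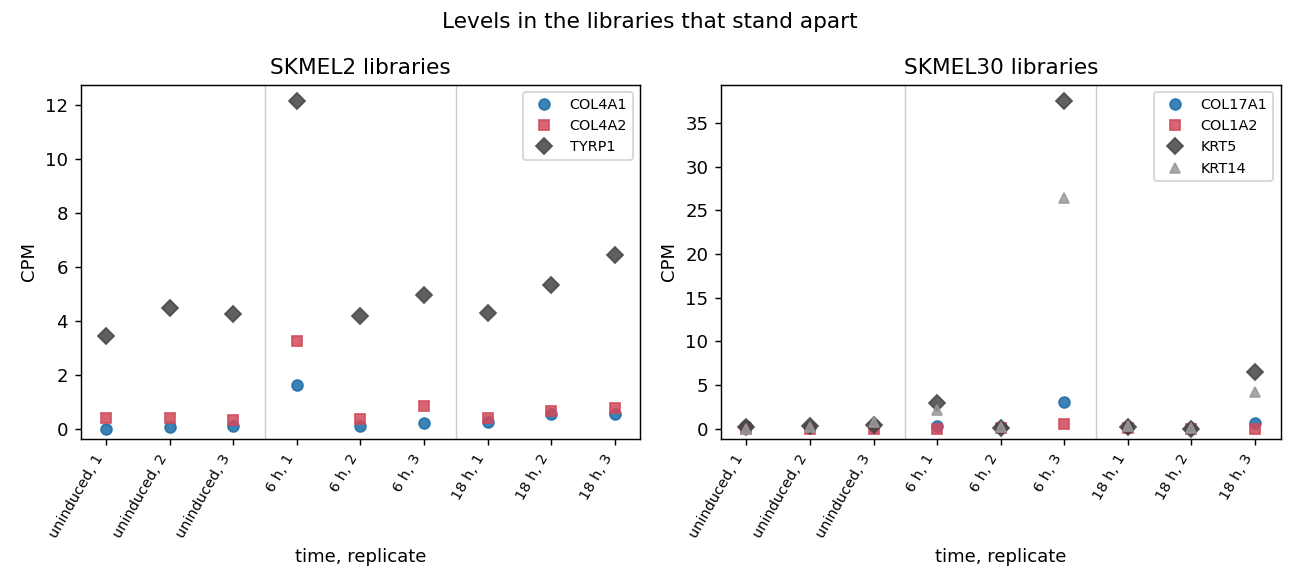
Levels in CPM (linear axis) of COL4A1, COL4A2 and TYRP1 in the 9 SKMEL2 libraries (left) and of COL17A1, COL1A2, KRT5 and KRT14 in the 9 SKMEL30 libraries (right), 1 point per gene and library. Replicate 1 of SKMEL2 at 6 h (TYRP1 12.1 CPM, COL4A2 3.27 CPM) and replicate 3 of SKMEL30 at 6 h (KRT5 37.5 CPM, COL17A1 3.03 CPM) lie above the rest of their line.

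SKMEL2 expressed 25 collagen genes and SKMEL30 expressed 19. Of the 44 genes, 15 were expressed in both lines, 10 in SKMEL2 alone, 4 in SKMEL30 alone and 15 in neither. The summed collagen level in CPM was of like size in both, 957 ± 34.5 CPM (SD, n = 3) in uninduced SKMEL2 and 853 ± 35.8 CPM (SD, n = 3) in uninduced SKMEL30. With CPM divided by transcript length in kb, the sums were 218 in SKMEL2 and 158 in SKMEL30 (means over 9 libraries). The sums came from different genes. In SKMEL2, COL12A1, COL9A3 and COL11A2 together made 77.7% of the collagen counts, and in SKMEL30, COL4A2, COL4A1 and COL9A3 made 73.6%. By class, the fibril-associated collagens summed to 777 CPM in SKMEL2 and 158 CPM in SKMEL30, whereas the basement membrane chains summed to 6.36 CPM and 531 CPM. In bulk RNA a lower level in fewer cells and a lower level in every cell cannot be told apart.

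**Figure D2:**
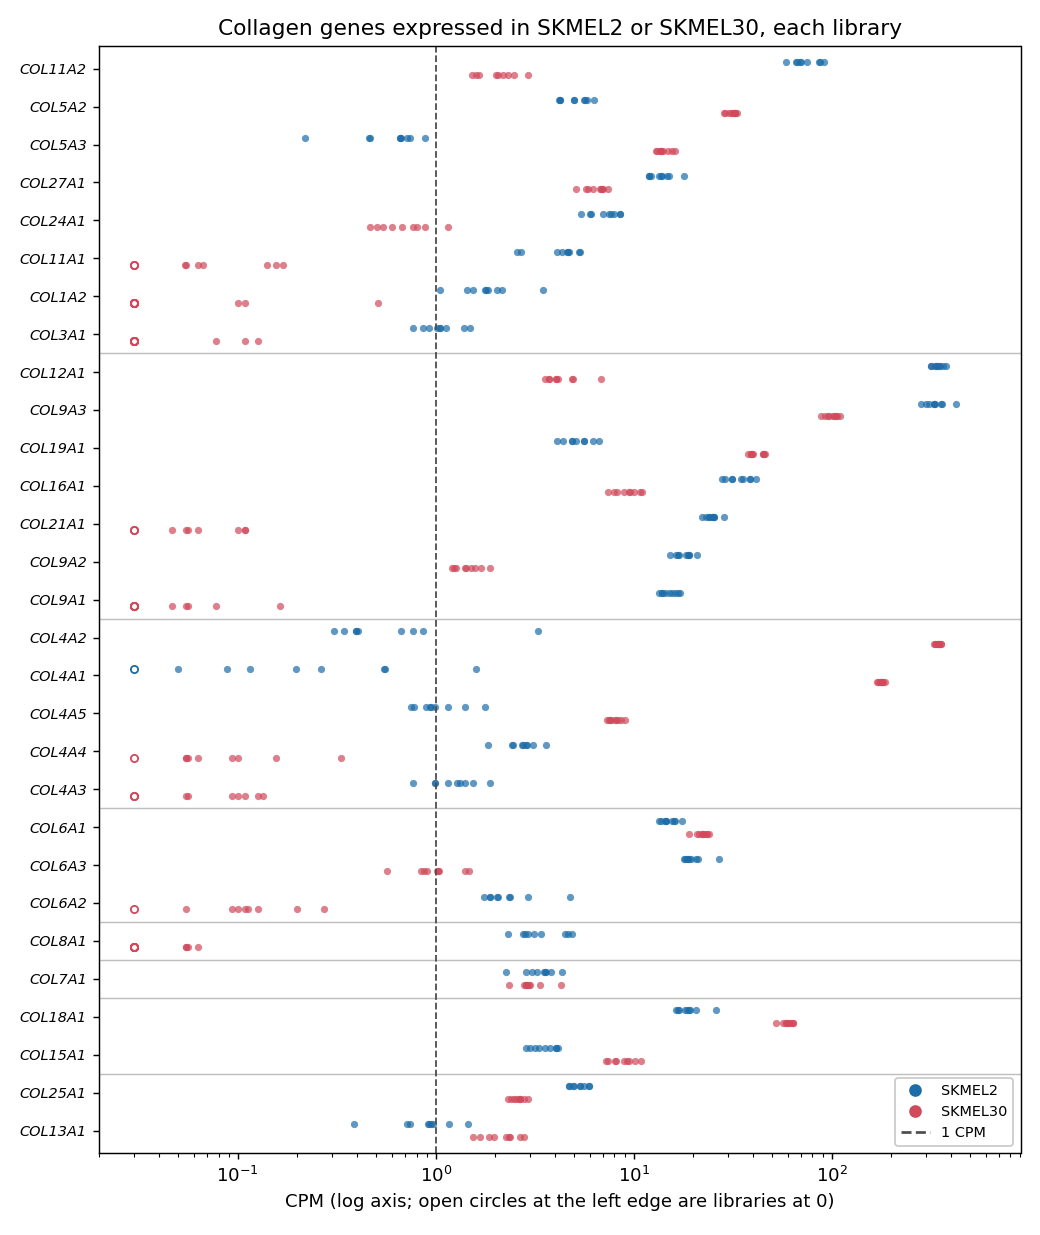
Level in CPM (log axis) of the 29 collagen genes with a mean of at least 1 CPM in either line, 1 point per library, 9 per line, grouped by collagen class between the grey lines, with open circles for libraries at 0. COL12A1 lies at 317 to 378 CPM in SKMEL2 and at 3.56 to 6.86 CPM in SKMEL30, and COL4A2 at 329 to 359 CPM in SKMEL30 and at 0.308 to 3.27 CPM in SKMEL2.

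Between the uninduced groups, 32 of the 36 collagen genes tested passed an adjusted p of 0.05 in edgeR's quasi-likelihood test, where 75.9% of all 17133 genes tested were called. Of the 32, 10 were higher in SKMEL30, a direction in which 35.8% of all genes were called, and 22 were higher in SKMEL2, in which 40.1% were. The median log2 difference of the 36, SKMEL30 against SKMEL2, was -1.80, beside -0.05 over all genes, and genes with few counts in a line lie far to either side of it. The members that were not called were COL7A1, COL14A1, COL1A1 and COL17A1. Each line is 1 cell line, so these are differences between a pair of lines, and p-values measure the spread between libraries whose origin in separate cultures the labels do not state.

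Type IV collagen, the network of basement membranes, has 6 chains encoded by 3 pairs of genes, each pair lying head to head and read outward from a shared stretch. COL4A1 (GRCh38.p14, chr13:110148963-110307157) and COL4A2 (chr13:110307284-110513209) encode the chains of the common network, a pair of alpha 1 chains with an alpha 2 chain. COL4A1 was at 187, 183 and 178 CPM in the uninduced SKMEL30 libraries and at 0, 0.0497 and 0.0879 CPM in the SKMEL2 ones. The groups did not overlap, and the SKMEL2 sum was 3 counts against 9482, a ratio of 3658 (95% counting interval 1251 to 17740, adjusted p = 6.15e-18). COL4A2 was at 357, 359 and 337 CPM in uninduced SKMEL30 and at 0.407, 0.398 and 0.308 CPM in uninduced SKMEL2, a log2 difference of 9.88 (standard error 0.24, adjusted p = 7.33e-18). Within SKMEL30 both chains kept a nearly fixed proportion per length of transcript, with COL4A1 at 0.495 to 0.535 of COL4A2 in the 9 libraries and a median of 0.508.

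COL4A3 and COL4A4 encode chains of the tighter network of glomerular and other specialised basement membranes, and they had the opposite pattern at a far lower level. COL4A4 ranged from 1.85 to 3.61 CPM in SKMEL2 (median 2.77) and from 0 to 0.334 CPM in SKMEL30 (median 0.0633). Its uninduced SKMEL30 sum was 3 counts, and the ratio was 52.7 (95% counting interval 17.8 to 258, adjusted p = 4.04e-09). COL4A3 ranged from 0.771 to 1.89 CPM in SKMEL2 (median 1.28) and up to 0.133 CPM in SKMEL30, a log2 difference of -3.98 (standard error 0.56, adjusted p = 2.51e-06). Per length, COL4A3 stood at 0.341 to 0.954 of COL4A4 in SKMEL2 (median 0.571), a wider range than the other pair had in SKMEL30. COL4A5, the partner of those chains, was higher in SKMEL30, with 7.34 to 9.01 CPM (median 8.02) against 0.747 to 1.78 CPM in SKMEL2 (median 0.943), a log2 difference of 3.16 (standard error 0.20, adjusted p = 2.89e-11). Its head-to-head neighbour COL4A6 stayed at 0 to 0.165 CPM in SKMEL2 and 0.0779 to 0.280 CPM in SKMEL30. By the limit of 1 CPM, COL4A3, COL4A4 and COL4A5 were all expressed in SKMEL2, at 0.157, 0.275 and 0.164 CPM per kb of transcript, and COL4A5 alone of the 3 in SKMEL30. COL4A5 averaged 1.07 CPM in SKMEL2 and 0.980 CPM without replicate 3 at 6 h.

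The stretches between the paired type IV genes are printed because the genes of a pair are read outward from them. For COL4A4 the start site used here, chr2:227164205, lies inside the gene and not at the edge of the stretch. The sequences are those of RefSeq on GRCh38.p14, plus strand, and run from the base after the end of the left gene to the base before the start of the right gene. For the COL4A6 and COL4A5 pair only the last 250 of 379 bases were used here. Capitals mark the letters CCAAT, the core of the box bound by NF-Y, and the letters GGGCGG, the core of the box bound by Sp factors, each read on either strand and with no overlap between them. The letters TATAAA were searched on both strands too. The stretches lie at chr13:110307158-110307283, chr2:227164489-227164623 and chrX:108439588-108439837.
COL4A1 to COL4A2: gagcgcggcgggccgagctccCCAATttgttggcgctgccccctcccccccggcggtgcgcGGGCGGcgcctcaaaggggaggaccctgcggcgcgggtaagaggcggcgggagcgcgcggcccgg
COL4A4 to COL4A3: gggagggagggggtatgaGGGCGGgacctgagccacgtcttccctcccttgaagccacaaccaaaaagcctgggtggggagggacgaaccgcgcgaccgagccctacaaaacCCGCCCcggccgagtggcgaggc
COL4A6 to COL4A5: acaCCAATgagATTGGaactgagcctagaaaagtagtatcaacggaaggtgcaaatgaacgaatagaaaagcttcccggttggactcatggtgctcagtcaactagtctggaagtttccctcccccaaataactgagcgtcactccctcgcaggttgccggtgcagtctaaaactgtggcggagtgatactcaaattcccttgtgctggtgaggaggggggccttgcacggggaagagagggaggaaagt

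The first stretch, of the pair that was high in SKMEL30, is 126 bases long with 80.2% G or C, and holds 1 CCAAT and 1 GGGCGG. The second, of the pair found in SKMEL2, is 135 bases long with 68.1% G or C, and holds 2 GGGCGG and no CCAAT. The last holds 2 CCAAT, 51.2% G or C and no GGGCGG, and TATAAA is in none of the 3. Over the whole RefSeq set of 35116 windows of 300 bases (250 before and 50 after a gene's start), CCAAT was in 34.6%, GGGCGG in 45.0% and TATAAA in 11.5%, counting both strands. Of the 44 collagen genes, 32 had a window, and 12 of these 32 held CCAAT, 21 GGGCGG and 7 TATAAA in at least 1 window. Some genes had several windows, so these counts of genes are not on the scale of the shares of windows. Of the 44 collagen windows, 31.8% held CCAAT, 54.5% GGGCGG and 18.2% TATAAA. COL6A1, COL6A5, COL9A3, COL14A1, COL20A1, COL22A1, COL1A1, COL1A2, COL2A1, COL3A1, COL5A2 and COL8A1 were not matched. These matches describe letters only, and binding was not measured.

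The fibril-associated collagens, which lack long uninterrupted helices and decorate the surface of fibrils, carried most of the SKMEL2 signal. COL12A1 (chr6:75084326-75206053), whose product links fibrils in dense connective tissue, was at 378, 339 and 366 CPM in the uninduced SKMEL2 libraries. In the uninduced SKMEL30 libraries it was at 4.17, 4.04 and 4.05 CPM, a log2 difference of -6.46 (standard error 0.13, adjusted p = 8.35e-19). COL9A3 (chr20:62816213-62841159), a chain of the cartilage collagen IX, was abundant in both lines, at 282 to 424 CPM in SKMEL2 (median 329) and 88.5 to 110 CPM in SKMEL30 (median 102), with a log2 difference of -1.70 (standard error 0.11, adjusted p = 1.99e-11). Its partner COL9A1 ranged from 13.5 to 17.2 CPM in SKMEL2 (median 15.0) but held 2 counts in all of uninduced SKMEL30, a ratio of 374 (95% counting interval 103 to 3091, adjusted p = 1.59e-14). The other partner, COL9A2, ranged from 15.3 to 20.9 CPM in SKMEL2 (median 18.4) and from 1.21 to 1.87 CPM in SKMEL30 (median 1.42), a log2 difference of -3.71 (standard error 0.15, adjusted p = 2.32e-14). SKMEL2 transcribed all 3 chains of type IX, and SKMEL30 mainly COL9A3.

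COL21A1, a fibril-associated collagen found in vessel walls, was at 22 to 28.5 CPM in SKMEL2 and at most 0.109 CPM in SKMEL30 (log2 difference -8.21, standard error 0.23, adjusted p = 5.11e-17). COL16A1, which links matrix fibrils to cells in skin and cartilage, ranged from 28.1 to 41.6 CPM in SKMEL2 (median 34.8) and from 7.44 to 11.1 CPM in SKMEL30 (median 9.53), a log2 difference of -2.0 (standard error 0.15, adjusted p = 3.20e-10). COL19A1 was the exception in this class and was higher in SKMEL30, at 38.0 to 46.0 CPM (median 39.8) against 4.09 to 6.65 CPM (median 5.11). Its log2 difference was 3.09 (standard error 0.13, adjusted p = 2.69e-14). In all, 7 of the 10 fibril-associated genes were expressed in SKMEL2 and 5 in SKMEL30, and COL14A1, COL20A1 and COL22A1 were expressed in neither.

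The fibrillar collagens that make up most of the collagen of skin were at or near the lower end in both lines. COL1A1, the main chain of type I, averaged 0.563 CPM in SKMEL2 and 0.308 CPM in SKMEL30. COL1A2, its partner chain, was at 2.04, 1.79 and 1.85 CPM in uninduced SKMEL2 and at 0 in all 3 uninduced SKMEL30 libraries. Taken against a floor of 3 counts over the group, it was at least 32.5-fold higher in SKMEL2 (adjusted p = 5.07e-06), with no counting error taken on the 113 SKMEL2 counts. COL3A1, the single chain of type III, averaged 1.07 CPM in SKMEL2 and 0.0348 CPM in SKMEL30, a log2 difference of -3.78 (standard error 0.56, adjusted p = 7.80e-06).

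The minor fibrillar collagens, which join the major ones inside a fibril and set its width, divided between the lines. Those of types XI, XXIV and XXVII were higher in SKMEL2. COL11A2 was at 58.9, 69.1 and 70.4 CPM in uninduced SKMEL2 and at 2.20, 2.07 and 1.52 CPM in uninduced SKMEL30 (log2 difference -5.09, standard error 0.18, adjusted p = 2.17e-15). Its partner COL11A1 ranged from 2.57 to 5.37 CPM in SKMEL2 (median 4.60) and up to 0.169 CPM in SKMEL30, with a log2 difference of -5.56 (standard error 0.47, adjusted p = 1.59e-09). COL24A1 averaged 7.20 CPM in SKMEL2 and 0.711 CPM in SKMEL30 (log2 difference -3.57, standard error 0.25, adjusted p = 1.15e-10), and COL27A1 averaged 13.9 and 6.44 CPM (log2 difference -1.3, standard error 0.15, adjusted p = 1.20e-07). Of type V, which starts the assembly of type I fibrils, COL5A2 and COL5A3 were higher in SKMEL30 and COL5A1 in SKMEL2. COL5A2 ranged from 28.5 to 33.3 CPM in SKMEL30 (median 31.8) and from 4.19 to 6.33 CPM in SKMEL2 (median 5.0), a log2 difference of 2.77 (standard error 0.11, adjusted p = 1.15e-14). COL5A3 ranged from 12.9 to 16.2 CPM in SKMEL30 and from 0.219 to 0.879 CPM in SKMEL2 (log2 difference 4.33, standard error 0.20, adjusted p = 1.28e-13). COL5A1, which encodes the chain common to the usual forms of type V, was expressed in neither line, with a mean of 0.622 CPM in SKMEL2 and 0.212 CPM in SKMEL30, a log2 difference of -1.49 (standard error 0.48, adjusted p = 0.00922).

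Type VI, the beaded filament of the pericellular matrix, is assembled from a chain each of COL6A1, COL6A2 and a further gene, most often COL6A3. COL6A1 was abundant in both lines, at 13.5 to 17.5 CPM in SKMEL2 (median 14.6) and 19.0 to 24.1 CPM in SKMEL30 (median 22.4), a log2 difference of 0.50 (standard error 0.10, adjusted p = 0.000138). COL6A3 was at 18.0 to 26.9 CPM in SKMEL2 (median 19.0) and 0.569 to 1.47 CPM in SKMEL30 (median 1.01), a log2 difference of -4.65 (standard error 0.19, adjusted p = 1.91e-14). COL6A2 was at 1.75 to 4.75 CPM in SKMEL2 (median 2.07) and at most 0.272 CPM in SKMEL30, a log2 difference of -4.03 (standard error 0.50, adjusted p = 4.34e-07). COL6A1 was the one type VI chain with a level well above 1 CPM in SKMEL30. Even in SKMEL2, COL6A1 exceeded COL6A2 per length by a median factor of 5.43 (2.77 to 7.59 over 9 libraries). The alternative chains COL6A5 and COL6A6 were expressed in neither line.

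Among the remaining classes, COL8A1, a chain of the hexagonal net under endothelia, was found in SKMEL2 at 4.89, 4.67 and 4.48 CPM without induction, and held 3 counts in all of uninduced SKMEL30. The ratio was 80.7 (95% counting interval 27.3 to 393, adjusted p = 2.22e-11), and its partner COL8A2 was expressed in neither line. COL7A1, which encodes the anchoring fibrils that tie the epidermal basement membrane to the dermis, did not pass the test, at 2.27 to 4.35 CPM in SKMEL2 (median 3.51) and 2.34 to 4.28 CPM in SKMEL30 (median 2.88). Its log2 difference was -0.38 (95% interval -0.82 to 0.06, standard error 0.21, adjusted p = 0.105). The multiplexins, basement membrane proteoglycans whose ends release fragments such as endostatin, were both higher in SKMEL30. COL18A1 ranged from 52.5 to 64.1 CPM there (median 60.5) and from 16.3 to 25.9 CPM in SKMEL2 (median 18.6), a log2 difference of 1.76 (standard error 0.12, adjusted p = 3.54e-11). COL15A1 averaged 8.86 and 3.55 CPM (log2 difference 1.35, standard error 0.14, adjusted p = 5.01e-08).

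Of the 4 membrane-spanning collagens, COL25A1 averaged 5.29 CPM in SKMEL2 and 2.60 CPM in SKMEL30 (log2 difference -1.0, standard error 0.14, adjusted p = 1.50e-06). COL13A1, found at cell adhesion sites, averaged 0.913 and 2.16 CPM (log2 difference 1.37, standard error 0.31, adjusted p = 0.000525). COL17A1, the hemidesmosome collagen of basal keratinocytes, averaged 0.418 CPM in SKMEL2 and 0.609 CPM in SKMEL30. Its SKMEL30 mean rests on replicate 3 at 6 h, at 3.03 CPM, while the other 8 lay between 0.0667 and 0.659 CPM. COL17A1 did not pass the test between the lines (log2 difference -0.68, standard error 0.93, adjusted p = 0.521), and COL23A1 did not pass the filter on low counts.

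**Figure D3:**
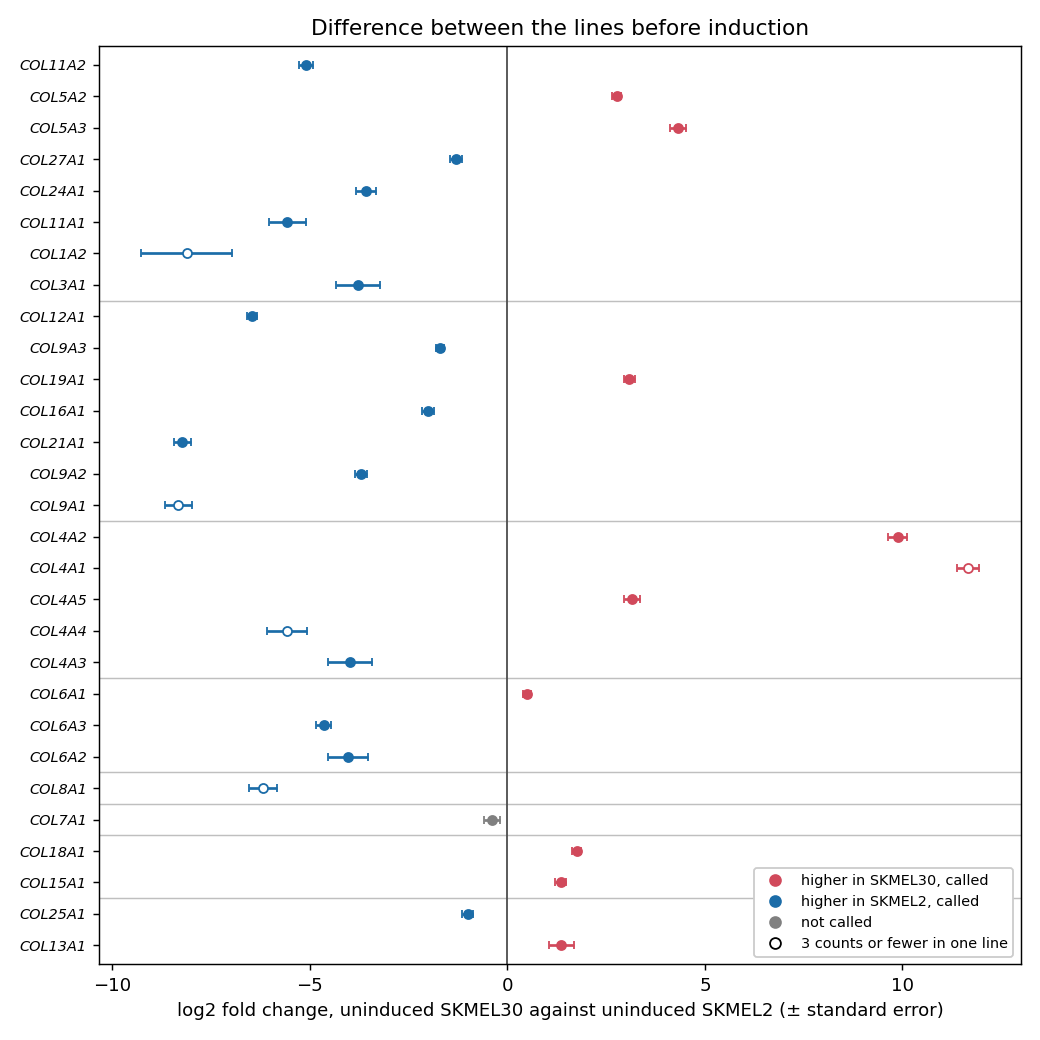
Log2 fold change of uninduced SKMEL30 against uninduced SKMEL2 for the 29 collagen genes expressed in either line, from edgeR's fit of 18 libraries, with bars of 1 standard error. Filled points run from -8.21 (COL21A1) to 9.88 (COL4A2), open symbols mark genes with 3 counts or fewer in the uninduced libraries of a line, whose fitted values are not bounds, and the grey point is COL7A1, which was not called.

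The counts of genes expressed in 1 line only depend on where the limit of 1 CPM falls. Just inside it were COL6A3 in SKMEL30 at 1.02 CPM, and COL4A5 and COL3A1 in SKMEL2, each at 1.07 CPM. Just outside were COL13A1 at 0.913 CPM and COL4A2 at 0.824 CPM in SKMEL2, and COL24A1 at 0.711 CPM in SKMEL30. With a limit of 0.5 CPM, 15 collagen genes in place of 10 were expressed in SKMEL2 alone, 2 in place of 4 in SKMEL30 alone and 8 in place of 15 in neither line. COL1A1, COL2A1, COL5A1, COL10A1, COL14A1 and COL28A1 joined those of SKMEL2 and COL24A1 left them, while COL4A2, COL5A3 and COL13A1 then counted in both lines. The 2 of SKMEL30 were COL4A1 and COL17A1, and without replicate 3 at 6 h COL17A1 was under that limit, leaving 1.

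To compare chains of a type with each other, CPM were divided by the length of the transcript in kb. On this scale the leading collagens were COL9A3 (135), COL12A1 (29.3) and COL11A2 (11.6) in SKMEL2, and COL4A2 (53.4), COL9A3 (40.0) and COL4A1 (27.2) in SKMEL30. Within type IX, COL9A3 exceeded both partners in each line, since COL9A2 was at 0.0471 of COL9A3 in SKMEL2 and 0.0118 in SKMEL30 (medians over 9 libraries, with ranges of 0.0349 to 0.0557 and 0.0109 to 0.0177). Within type XI, COL11A2 was at 11.6 and COL11A1 at 0.583 in SKMEL2. The other chain of type XI is a product of COL2A1, which averaged 0.682 CPM in SKMEL2 and was not expressed by the limit used. Among the multi-chain types plotted, SKMEL2 expressed COL6A1, COL6A2 and COL6A3 of type VI, all 3 genes of type IX and, at levels near the limit, COL4A3, COL4A4 and COL4A5 of type IV, while SKMEL30 expressed both chains of the common type IV network.

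**Figure D4:**
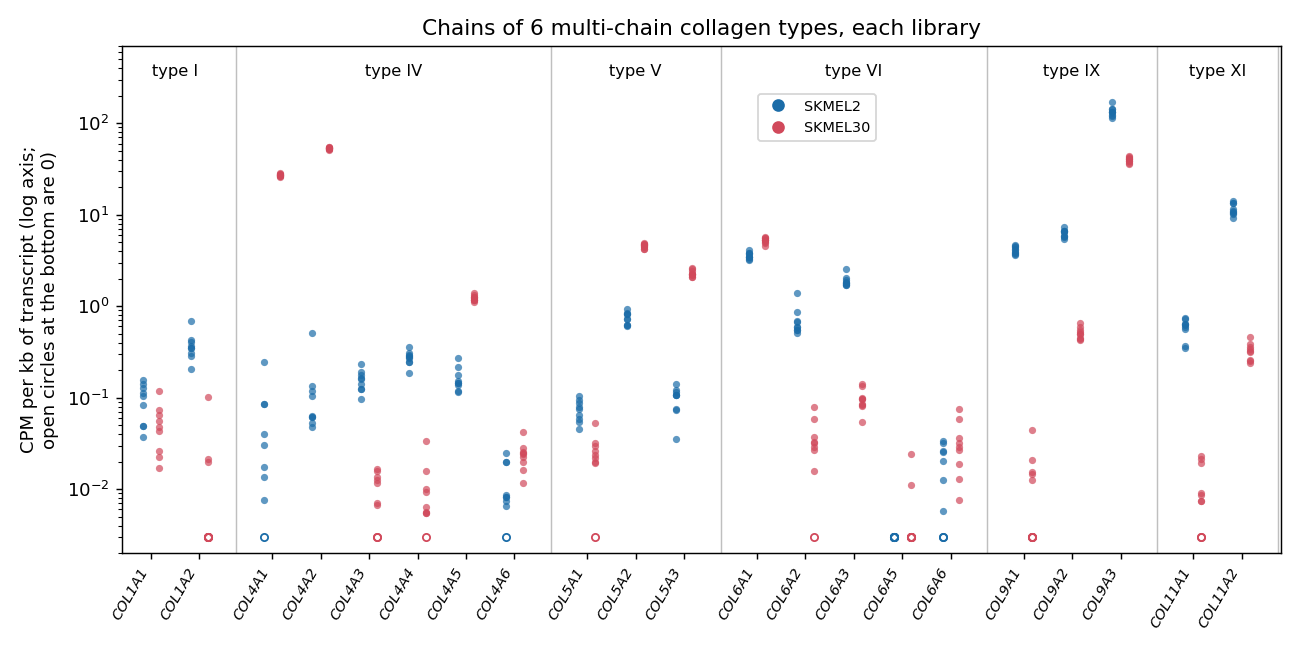
CPM per kb of transcript (log axis) for the chains of types I, IV, V, VI, IX and XI, 1 point per library, with open circles for 0. COL4A1 and COL4A2 average 27.2 and 53.4 in SKMEL30 and 0.0582 and 0.128 in SKMEL2, and the type IX chains average 4.11, 6.28 and 135 in SKMEL2 and 0.0120, 0.513 and 40.0 in SKMEL30.

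On the chromosomes, 7 pairs of collagen genes lie within 100 kb of each other on GRCh38.p14 with 0 protein-coding genes between them. In 5 of these 7 both genes were tested between the lines, and 3 of the 5 differed in opposite directions. Of all 36 collagen genes tested, 10 were higher in SKMEL30 and 26 lower, called or not. Pairs of genes further apart were not counted, so the 3 of 5 has no share to be read against. COL19A1 (chr6:69866556-70212468) ends 2.59 kb before COL9A1 (chr6:70215061-70303084). COL19A1 was higher in SKMEL30 (log2 difference 3.09) and COL9A1 in SKMEL2 (the ratio of 374 given above). COL3A1 and COL5A2, 19.2 kb apart on chromosome 2, had log2 differences of -3.78 and 2.77, and COL6A1 and COL6A2, 93.1 kb apart on chromosome 21, of 0.50 and -4.03. The head-to-head pairs COL4A1 with COL4A2 and COL4A3 with COL4A4 each went together. These pairs were listed after the values were seen.

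Induction of PPP2R3B was followed by no called change in any collagen gene in edgeR's test. Of the 35 collagen genes tested in SKMEL2, 0 were called at 6 h and 0 at 18 h, where 0.0124% of all genes were called at each time. Of these 35, 2 had an unadjusted p under 0.05 at each time, a share that was 3.37% and 4.65% over all genes. Of the 20 tested in SKMEL30, 0 were called at 6 h (0.206% of all genes called) and 0 at 18 h (0.293%). Of these 20, 0 and 5 had an unadjusted p under 0.05, against 6.44% and 9.14% of all genes. DESeq2 called 0 in each of the 4 comparisons as well, with 2, 2, 0 and 3 at an unadjusted p under 0.05. Among all genes, 329, 527, 422 and 651 were under it. In SKMEL30 it gave an adjusted p to only 10947 genes at 6 h and 3956 at 18 h, where edgeR tested 15026. A collagen gene without an adjusted p could not be called, so these 0 are weaker than those of edgeR. Over the 25 collagen genes expressed in SKMEL2, the median log2 fold change was 0.02 at 6 h and -0.01 at 18 h, with a median standard error of 0.17 at both times. Over the 19 expressed in SKMEL30 it was 0.05 and 0.04, with a median standard error of 0.12 at both, while the median over all genes tested was 0.00 in each comparison. The summed collagen level was 969 ± 77.3 CPM at 6 h and 982 ± 58.0 CPM at 18 h in SKMEL2, and 849.8 ± 20.4 CPM and 834 ± 5.96 CPM in SKMEL30 (SD, n = 3 each).

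The smallest p in SKMEL2 at both times belonged to COL8A1. It was at 4.89, 4.67 and 4.48 CPM in uninduced cells, 2.94, 3.38 and 2.31 CPM at 6 h and 2.77, 2.83 and 3.14 CPM at 18 h. All 6 induced libraries lay below all 3 uninduced ones. Genes named for a small p, here and in SKMEL30, were picked from these values, so groups that do not overlap are no added support. Among 16120 genes the log2 fold changes of COL8A1, -0.69 at 6 h (standard error 0.17, adjusted p = 0.989) and -0.69 at 18 h (standard error 0.17, adjusted p = 0.675), were not called. Both times share the same 3 uninduced libraries, so they are not separate evidence. COL4A2 had the next smallest p at 6 h, with 3.27, 0.344 and 0.858 CPM against 0.407, 0.398 and 0.308 CPM, and its change on the log2 scale was 2.02 (standard error 0.67, adjusted p = 0.989). The groups overlapped, and without replicate 1 of the 6 h group, described above, the value was 0.68 (adjusted p = 0.848). Without replicate 3 of that group, 5 collagen genes in place of 2 had an unadjusted p under 0.05, and 0 were called. Over all genes, 473 of 16406 were then under it, in place of 543 of 16120. COL11A2 had the next smallest p at 18 h, with 87.1, 86.5 and 74.8 CPM against 58.9, 69.1 and 70.4 CPM. These groups did not overlap, and the change was 0.32 on the log2 scale (standard error 0.12, adjusted p = 0.987).

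In SKMEL30 at 6 h the smallest p were those of COL13A1 (log2 fold change -0.29, standard error 0.22, adjusted p = 0.853) and COL27A1 (0.17, standard error 0.13, adjusted p = 0.855). At 18 h COL5A2 was at 28.5, 30.2 and 29.0 CPM against 32.2, 32.7 and 33.3 CPM without induction, groups that did not overlap. The change on the log2 scale was -0.16 (standard error 0.05, adjusted p = 0.248). COL6A3, near the limit of expression, was at 1.47, 1.40 and 1.04 CPM against 0.845, 0.872 and 0.569 CPM, a change of 0.75 on the log2 scale (standard error 0.28, adjusted p = 0.425) that rests on 9 to 27 counts per library. For the abundant chains the intervals were narrow: at 18 h in SKMEL30 that of COL4A2 ran from -0.13 to -0.01 and that of COL4A1 from -0.15 to -0.01 on the log2 scale, neither called. In SKMEL2 the interval of COL12A1 at 18 h ran from -0.25 to 0.03 and that of COL9A3 from -0.11 to 0.41.

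**Figure D5:**
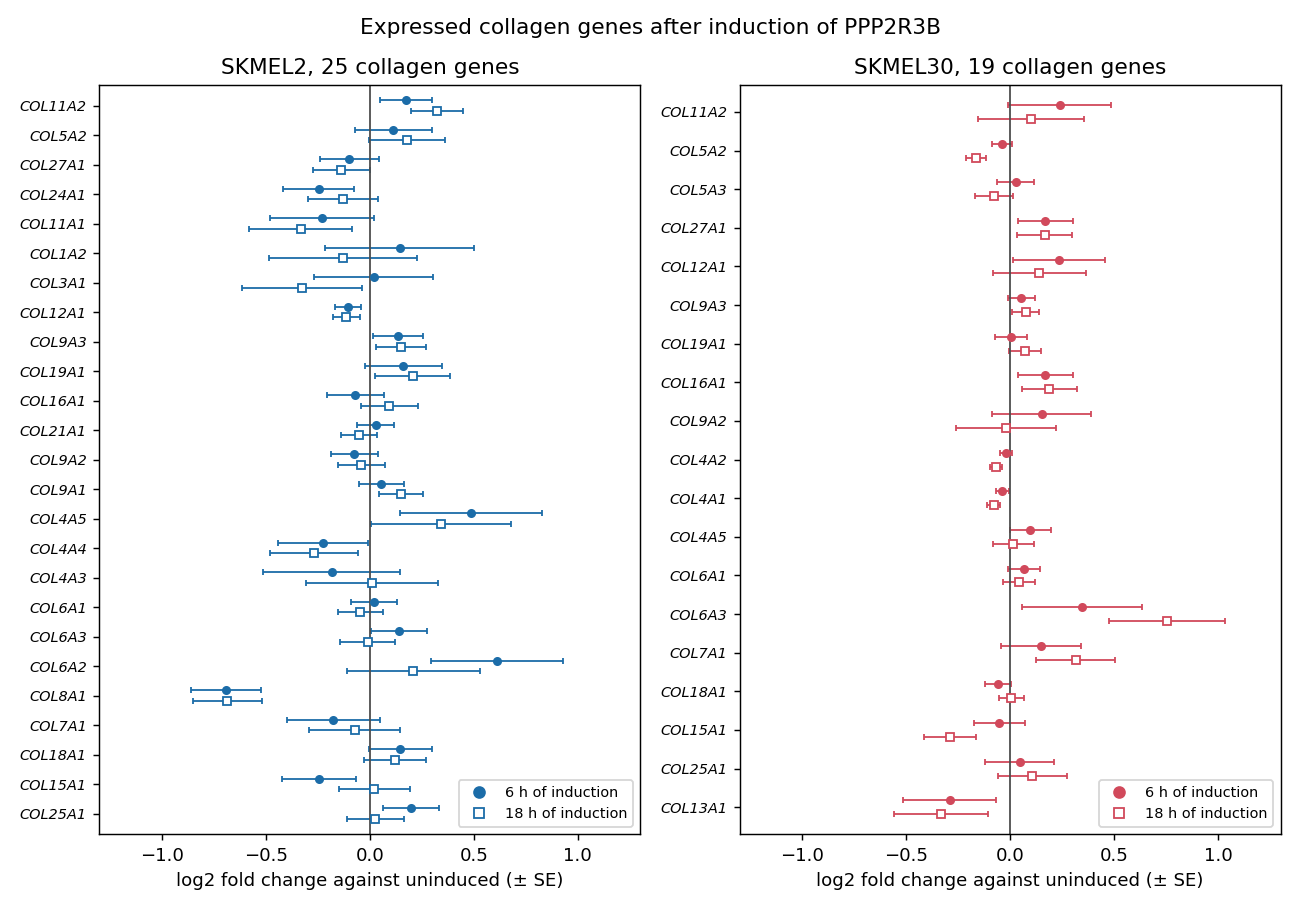
Log2 fold change against uninduced cells at 6 h (filled circles) and 18 h (open squares) of the 25 collagen genes expressed in SKMEL2 (left) and the 19 expressed in SKMEL30 (right), with bars of 1 standard error. Values lie between -0.69 and 0.61 in SKMEL2 and between -0.33 and 0.75 in SKMEL30, and 0 were called.

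The response to induction was also compared between the lines as an interaction in the fit of 18 libraries. Of 36 collagen genes tested, 0 differed at 6 h (0% of all genes called) and 0 at 18 h (0.00584%), by edgeR. At each time 4 had an unadjusted p under 0.05, a share that was 4.91% and 5.16% over all genes. At 6 h these were COL4A1, COL4A2, COL1A2 and COL17A1. Without replicate 3 of SKMEL30 at 6 h, 2 were left, COL4A1 and COL4A2, and without replicate 1 of SKMEL2 at 6 h there were 3, COL1A2, COL17A1 and COL4A5, with 0 called in either case. Over all genes, 844 of 17465 and 1257 of 17597 had an unadjusted p under 0.05 in these fits, against 842 of 17133 with all libraries. DESeq2 also called 0 at either time, with 4 and 3 at an unadjusted p under 0.05, beside 595 and 653 among all genes. The smallest p at 6 h belonged to COL4A1 (difference in log2 fold change -3.61, SKMEL30 minus SKMEL2, standard error 0.94, adjusted p = 0.902) and COL4A2 (-2.07, standard error 0.58, adjusted p = 0.902). Both rest on the few SKMEL2 counts given above, and without replicate 1 of SKMEL2 at 6 h they came to -1.53 and -0.68. At 18 h they belonged to COL4A1 (-3.06, standard error 1.02, adjusted p = 0.895), from 0 to 2 counts per uninduced SKMEL2 library and 6 to 10 at 18 h, and to COL6A3 (0.76, standard error 0.32, adjusted p = 0.895).

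Genes that fold, export, trim, bind or degrade collagen were counted in 7 lists of 100 genes. In SKMEL2, of 71 tested, 0 were called at either time by edgeR, where 0.0124% of all genes were called, with 2 and 6 at an unadjusted p under 0.05, a share that was 3.37% and 4.65% over all genes. In SKMEL30, of 76 tested, 1 was called at each time, where 0.206% and 0.293% of all genes were called, with 8 and 15 at an unadjusted p under 0.05, against 6.44% and 9.14% of all genes. That gene was THBS1, thrombospondin 1, a matrix glycoprotein that binds collagen. It fell from 248 ± 8.81 CPM to 199 ± 9.23 CPM at 6 h and 199 ± 6.77 CPM at 18 h (SD, n = 3 each), log2 fold changes of -0.32 and -0.31 (standard error 0.04 at both, adjusted p = 0.000928 and 0.00103). In SKMEL2 it was at 212 ± 31.6, 165 ± 24.1 and 163 ± 18.1 CPM (SD, n = 3 each), log2 fold changes of -0.36 and -0.38 that were not called (adjusted p = 0.989 and 0.987). CCN2, a matricellular growth factor, had the smallest p of the lists in SKMEL2, at 139 ± 11.9, 99.5 ± 17.4 and 96.5 ± 4.31 CPM (SD, n = 3 each), and was not called either (log2 fold change -0.48 and -0.53, adjusted p = 0.989 and 0.577). In SKMEL30 its log2 fold change at 6 h was -0.29 (adjusted p = 0.624), and that of the glycoprotein gene TNC at 18 h was 0.18 (adjusted p = 0.158).

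Between the uninduced lines, 78 of the 100 were tested and 35 were called in each direction, beside 35.8% of all genes called higher in SKMEL30 and 40.1% higher in SKMEL2, against which the counts of each list can be read too. Of the folding and modification list, 10 of 19 tested were higher in SKMEL30 and 7 in SKMEL2. SERPINH1, the collagen chaperone HSP47, was at 85.5 ± 2.27 CPM in SKMEL30 and 0.131 ± 0.0402 CPM in SKMEL2 (SD, n = 3 each), a log2 difference of 9.25 (standard error 0.14, adjusted p = 3.25e-20). The prolyl hydroxylase genes P3H2 and P3H3, whose enzymes modify collagen chains, differed in the same direction (adjusted p = 3.19e-17 and 5.50e-16). P3H2 was at 28.4 ± 1.48 CPM in SKMEL30 and 0.0388 ± 0.0672 CPM in SKMEL2, and P3H3 at 22.9 ± 1.26 and 0.737 ± 0.229 CPM (SD, n = 3 each).

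Of the export list 2 of 9 were higher in SKMEL30 and 6 in SKMEL2, with small differences for MIA2 (-1.20), MIA3 (-0.47) and KLHL12 (0.54), genes of the large carriers that take procollagen out of the endoplasmic reticulum. Of the propeptide removal and crosslinking list, 3 of 9 were higher in SKMEL30 and 4 in SKMEL2. The procollagen N-proteinase gene ADAMTS2 was at 3.93 ± 0.562 CPM in SKMEL2 and 0.151 ± 0.115 CPM in SKMEL30, PCOLCE2, which enhances removal of the other propeptide, at 0.209 ± 0.130 and 10.9 ± 0.873 CPM, and ADAMTS14 at 0 in every uninduced SKMEL2 library and 0.630 ± 0.277 CPM in SKMEL30 (SD, n = 3 each). Of the receptor list, 2 of 8 were higher in SKMEL30 and 5 in SKMEL2, led by DDR2, a receptor kinase that fibrillar collagen activates, at 93.8 ± 2.65 CPM in SKMEL2 and 4.04 ± 0.185 CPM in SKMEL30 (SD, n = 3 each, log2 difference -4.53, adjusted p = 7.62e-18). The collagen uptake receptor gene MRC2 (-1.97) and the integrin gene ITGA10 (-1.34) went the same way.

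Of the degradation list, 7 of 10 were higher in SKMEL30 and 3 in SKMEL2. The interstitial collagenase gene MMP1 was at 3.81 ± 1.08 CPM and the collagen-degrading cathepsin gene CTSK at 22 ± 0.622 CPM in SKMEL30, against 0.0312 ± 0.0272 and 1.53 ± 0.227 CPM in SKMEL2, while the gelatinase gene MMP2 was at 0.381 ± 0.162 and 11.6 ± 2.37 CPM (SD, n = 3 each). Of the matrix partners, 5 of 9 were higher in SKMEL30 and 3 in SKMEL2, with TGFBI at 1.20 ± 0.380 CPM in SKMEL30 and 102 ± 4.13 CPM in SKMEL2, LUM at 27.5 ± 0.0317 and 2.71 ± 0.448 CPM, and THBS2 at 0.443 ± 0.0482 and 4.71 ± 1.04 CPM (SD, n = 3 each). Of the list of regulators of collagen transcription, which holds TGF-beta ligands, receptors and target genes beside SMAD and other nuclear factors, 6 of 14 were higher in SKMEL30 and 7 in SKMEL2. The members named for their size were both secreted proteins, CCN2 with a log2 difference of -3.09 and the ligand TGFB2 with 2.52. The lists were read by these counts only.

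Of the 15 collagen genes expressed in neither line, 7 passed the filter of the fit of both lines and could be tested between them. Among these, COL28A1, COL10A1, COL2A1 and COL5A1 were called with more in SKMEL2, where their uninduced means were 0.778, 0.658, 0.605 and 0.722 CPM against 0.0211, 0.0545, 0.15 and 0.258 CPM in SKMEL30, and COL1A1, COL14A1 and COL17A1 were not called. The other 8 were COL4A6, COL6A5, COL6A6, COL8A2, COL20A1, COL22A1, COL23A1 and COL26A1, all at means under 0.5 CPM in both lines. COL6A5 and COL23A1 were at 0 in the 9 SKMEL2 libraries, which for each gene allows up to 3 counts over the 9 libraries together, by counting error alone.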

How the data were processed

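Poly(A) RNA libraries (KAPA mRNA HyperPrep) of the 18 samples were sequenced by the authors. The deposited values are expected counts per Ensembl gene from RSEM, which the authors made on GRCh38. The submitters' processing notes name cutadapt 1.5, Trimmomatic 0.36, STAR 2.2.2a, SAMtools 1.8 and RSEM 1.3.0. The study's methods give later versions of cutadapt and STAR and do not name Trimmomatic. Whether counting used strand is not given in the sources used here. Of the expected counts, 12.3% were not whole and were rounded. Symbols were matched by gene ID for 55604 of 58051 genes (95.8%).

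Genes passing filterByExpr were tested with edgeR 4.0.16 (R 4.3.3, TMM, quasi-likelihood test, Benjamini-Hochberg adjusted p under 0.05 over all genes tested). Induced groups were compared within the 9 libraries of a line (16120 genes in SKMEL2, 15026 in SKMEL30), and lines and interactions in a fit of 18 libraries (17133 genes). DESeq2 1.42.0, other filters, scaling, libraries and a replicate block were alternatives. The fits were tested on simulated data. Replicates of a group differed by more than sampling noise, with a chi-square per degree of freedom of 2.08 to 18.6. Lengths are of GENCODE canonical transcripts, and coordinates and sequences of RefSeq on GRCh38.p14. Counting intervals and floors are exact at 95% and cover counting error only. Named genes were every collagen gene expressed in either line, the pair with the smallest p in each comparison, and in the other lists those called, with the smallest p or with the largest folds between lines. The collagen genes and all lists were chosen with earlier results of these data known. A gene that this rule names is not reported here. The later time is given as the labels state it, and the study's text gives a slightly shorter one.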

Additional observations from a re-analysis of the deposited data

How the results depend on the processing

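The 0 collagen genes called after induction and for the interactions, and the 32 called between the lines, were also obtained with DESeq2, RLE scaling and other sets of libraries within 1.5 times, and 0 values reversed. For DESeq2 after induction in SKMEL30 this covers only genes that were given an adjusted p, as stated above. With no filter on low counts, 2 were called in SKMEL2 at 6 h (COL4A1, COL4A2), 2 at 18 h (COL4A1, COL11A2), 1 in SKMEL30 at 6 h (COL17A1), and 4 and 1 for the interactions at 6 h and 18 h. All genes called then numbered 158, 168, 321 and 359 in the 4 induced comparisons, against 2, 2, 31 and 44 with the filter. They made 0.481%, 0.512%, 1.05% and 1.18% of the genes tested without it. For the interactions they numbered 237 and 216 (0.667% and 0.608%), against 0 and 1. Left out of the unfiltered fits as alternatives chosen after seeing the data, replicate 1 of SKMEL2 at 6 h took the calls there from 2 to 0 and the 6 h interaction from 4 to 2 (COL1A2, COL17A1), replicate 3 of SKMEL2 at 6 h left 2 and 4, and replicate 3 of SKMEL30 at 6 h took the calls there from 1 to 0 and the 6 h interaction from 4 to 2 (COL4A1, COL4A2). With at least 10 counts in every library, 13 were called between the lines, of 14 that could be tested, where 77.9% of all 12582 genes were called. With a limit of 0.5 CPM, 2 were expressed in SKMEL30 only, and 1 without replicate 3 of SKMEL30 at 6 h, on which COL17A1 rests.

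Leaving out each library in turn gave 0 to 0 calls after induction and for the interactions and 31 to 32 between the lines, and 24 to 25 collagen genes expressed in SKMEL2 and 18 to 19 in SKMEL30. Same-numbered replicates deviated together with a correlation above 0.1 in 3 of 9 pairs in SKMEL2 and 1 of 9 in SKMEL30. The highest correlation was 0.173 in SKMEL2 and 0.119 in SKMEL30, and the lowest was -0.128 and -0.0217. These values have no differently numbered pairs beside them, so whether the numbers pair the samples was not tested. With the replicate block, 0 collagen genes were called in each induced comparison and interaction and 32 between the lines, while all genes called numbered 3 and 7 in SKMEL2 and 40 and 37 in SKMEL30. DESeq2 called 8, 11, 34 and 71 genes in the 4 induced comparisons and 3 for the interaction at 18 h, a fit of all 18 libraries 6, 7, 5 and 9, and a fit of the 6 libraries compared 2, 9, 22 and 52. The causes of these differences were not tested. Genes under about 1 CPM rest on few counts, and changes there were not detectable at this depth unless large.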

Other observations

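Loci named after collagen genes but outside the rule were nearly silent. Of 10 antisense, divergent or pseudogene loci, COL11A2P1, COL18A1-AS2, COL5A1-AS1 and COL6A2-DT were listed at 0 in all 18 libraries. COL25A1-DT reached 3 counts and was above 0 in 11 libraries, COL4A2-AS2 reached 2 counts and was above 0 in 4 libraries, and COL6A4P1 reached 2 counts, with 3 libraries above 0. COL18A1-AS1, COL4A2-AS1 and COL6A4P2 reached 1 count. Without a stated use of strand, reads of a gene and of its antisense partner cannot be told apart.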
